A study of Arabidopsis thaliana with 4 samples.

Results

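The genes described here are those encoded in the mitochondrial genome of Arabidopsis thaliana. They are the rows whose locus identifier begins with ATMG, and there were 144 of them among the 33544 loci in the tables. By their symbols they comprise 14 complex I genes, 1 complex III gene, 3 complex IV genes and 6 complex V genes, 5 genes for cytochrome c maturation, 6 for ribosomal proteins and 2 other named coding genes. The others were 1 ribosomal RNA, 21 transfer RNAs and 85 open reading frames, among which 1 locus without a symbol was counted. The study compared seedlings of 14 days of age, of wild-type Col-0 and of ect2, a line in the Col-0 background with a T-DNA insertion in ECT2, whose YTH-domain product binds N6-methyladenosine in RNA. There were 2 libraries of each genotype, from plants kept in long days at 22 °C on half-strength medium or on soil, without other treatment. RNA was extracted with TRIzol and purified on oligo(dT) beads before library construction. Separate plantings for the 2 libraries of a genotype are not stated in the labels. The p-values therefore reflect library-to-library spread, which may be technical.

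Plant mitochondria make part of their respiratory chain themselves. Their genome encodes part of complexes I, III, IV and V, some ribosomal proteins and some of the proteins that attach heme to c-type cytochromes. The nucleus encodes all other subunits and the other proteins for heme attachment. Some transcripts, among them those of nad1, nad2 and nad5, are assembled from separately transcribed pieces by trans-splicing, and many are changed by C-to-U editing. In plant mitochondria, unlike in the cytosol, a poly(A) tail marks an RNA for decay, and most mature mitochondrial RNAs carry no stable tail. Selection on oligo(dT) therefore does not sample these RNAs as it samples nuclear mRNA, and in whole seedlings fewer mitochondria and less RNA per mitochondrion cannot be told apart.

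Values are taken to be FPKM, a level per length of transcript and per sequenced library, and an exact 0 may be a failed estimate, so such genes are called listed at 0. Where 4 values follow each other, they are those of Col-0 replicates 1 and 2 and then of ect2 replicates 1 and 2. ECT2 had 137 and 76.7 FPKM (Col-0) and 9.07 and 8.58 FPKM (ect2), in the direction of the labels. Its difference on log2(FPKM + 1) was -3.40 ± 0.33 (ect2 minus Col-0, limma standard error) with an adjusted p of 0.153. Absolute depth is unknown, and relative to Col-0 replicate 2 the estimated depth was 1.46 in Col-0 replicate 1, 1.39 in ect2 replicate 1 and 0.966 in ect2 replicate 2. Seed storage genes, used as markers of seed tissue, summed to 129.5 FPKM over 4 genes in Col-0 replicate 1 and to between 4.64 and 7.15 FPKM in the other libraries, so that 1 library stood apart from the rest. The share of summed FPKM held by plastid genes was 7.80% and 13.8% in Col-0 and 19.5% and 9.49% in ect2. Markers of leaf and root were present in every library, STM of the shoot meristem stood at 5.26 to 5.72 FPKM, WUS was listed at 0 in all 4 libraries, and the 3 flower markers did not reach 1.5 FPKM.

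Mitochondrial genes held a small part of the measured signal. Summed FPKM was 4482 and 3960 for Col-0 and 2436 and 6386 for ect2, which was 0.254%, 0.185%, 0.130% and 0.304% of all summed FPKM. The ect2 libraries were thus the lowest and the highest of the 4. The mean share was 0.220 ± 0.0486% in Col-0 and 0.217 ± 0.123% in ect2 (SD, n = 2 each; exact permutation test, two-sided p = 1, where 2 against 2 libraries cannot go below 0.333). Of the 144 members, 31 were listed at 0 in all libraries, 54 reached 1 FPKM in all 4, and 79 reached 1 FPKM in at least 2 and entered the test.

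The sum was set by 3 members: ORF107A, RRN18 and TRNY.2 together made up 87.8%, 70.0%, 71.6% and 87.8% of it in Col-0 replicates 1 and 2 and ect2 replicates 1 and 2. TRNY.2, a transfer RNA for tyrosine, was listed at 2128 and 0 FPKM (Col-0) and 0 and 3171 FPKM (ect2). It was therefore high in 1 library of each genotype and listed at 0 in the other. TRNC, a transfer RNA for cysteine, was listed at 0 and 319 FPKM (Col-0) and 0 and 106 FPKM (ect2), present in replicate 2 of both genotypes only. The remaining 19 transfer RNAs were at 0 throughout. A gene this short reaches a high FPKM from few fragments, and the number of fragments is not given in these files.

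**Figure D1:**
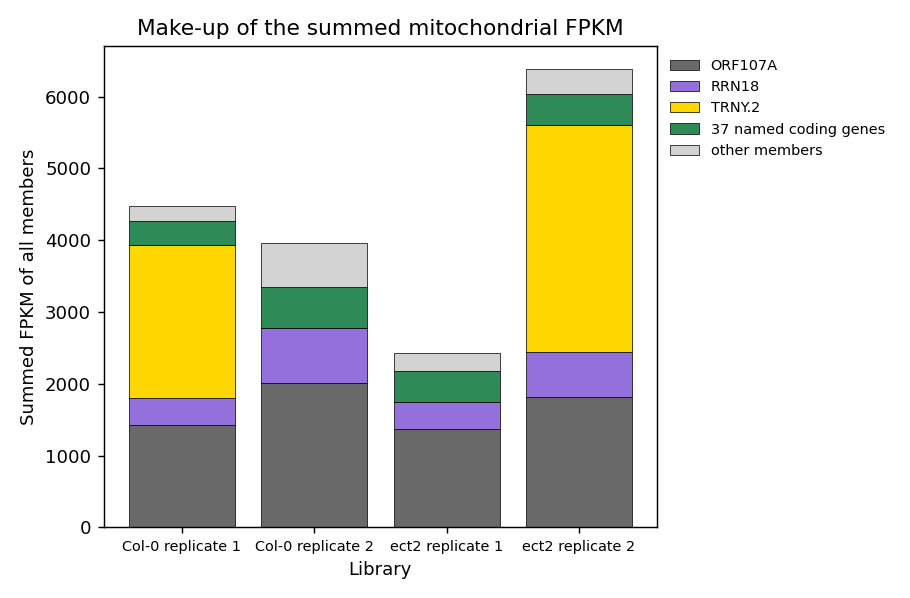
Stacked bars show the summed FPKM of the 144 mitochondrial members in each of the 4 libraries, split into ORF107A, RRN18, TRNY.2, the 37 named coding genes and all other members. TRNY.2 is present in 1 library of each genotype (2128 and 3171 FPKM) and is part of the 2 tallest bars.

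Named coding genes alone gave another order of the libraries. The 37 coding genes with a name summed to 327 and 578 FPKM in Col-0 and to 431 and 421 FPKM in ect2. Both ect2 libraries fell between the Col-0 libraries, and the means were 452 ± 177 and 426 ± 7.10 FPKM (SD, n = 2 each; exact permutation test, two-sided p = 1).

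Many of these genes have near-identical copies in the nucleus, which bears on their values. In the RefSeq assembly TAIR10.1, 72.2% of the 367808 nt of the mitochondrial genome was matched on chromosome 2. Matches of at least 99% identity over 1000 nt lay in the interval chr2:3239038-3509765, a known insertion of mitochondrial DNA near the centromere. Of the 36 mitochondrial coding and ribosomal RNA genes annotated by RefSeq, 22 were matched in the nucleus over their whole length and 3 (ccmB, atp4 and rrn5) not at all. How the authors' alignment shared reads between such copies is not given in the sources used here, so values of matched genes are uncertain. The authors aligned to TAIR10, and whether its mitochondrial sequence equals that of TAIR10.1 was not examined. The matches given here therefore describe TAIR10.1 only. The 2 genes below are shown as examples of an identical and of a near-identical copy. The coding sequence of atp9, the gene for the membrane ring subunit of ATP synthase, was identical over 225 nt in the mitochondrial genome and at chr2:3251856-3252080 on the minus strand. It is printed in the sense direction with the start and stop codons in capitals.

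atp9: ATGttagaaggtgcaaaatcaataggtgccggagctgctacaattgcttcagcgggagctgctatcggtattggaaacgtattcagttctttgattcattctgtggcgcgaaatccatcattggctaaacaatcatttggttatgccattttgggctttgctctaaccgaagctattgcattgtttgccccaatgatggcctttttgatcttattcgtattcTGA

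In ccmFN1, which encodes part of the heme lyase for cytochrome c and is CCB382 in the tables, the copies differed at 1 base of 1149, C54T, with positions counted from the first base of the coding sequence and the mitochondrial base first. The 61 nt around it are given with that base in capitals, from the mitochondrial genome and from chr2:3297913-3297973 on the plus strand (RefSeq, TAIR10.1).

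ccmFN1, mitochondrial genome: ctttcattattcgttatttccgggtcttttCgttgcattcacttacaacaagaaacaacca
ccmFN1, chromosome 2: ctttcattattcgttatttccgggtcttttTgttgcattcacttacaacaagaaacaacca

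The tables list nuclear loci of that interval separately: 129 of its 185 annotated loci had a row, and 57 of these reached 1 FPKM in at least 2 libraries. For 20 pairs of a member (19 members) and a nuclear locus covering at least 50% of the mitochondrial gene, the nuclear mean lay within 2-fold of the mitochondrial mean in 18 pairs, with a median ratio of 1.01. The atp6 genes are left out of these pairs, because the 2 atp6 genes in RefSeq could not be assigned singly to ATP6-1 and ATP6-2. Also left out are nad5, which has several rows, and rps12, to which no member was matched by symbol. The nad5 copy AT2G07711 had a mean of 12.9 FPKM, against 30.5 for NAD5C, 5.56 for NAD5A and 0 for NAD5B. ATP9 stood at 79.1 and 155 FPKM (Col-0) and 134 and 102 FPKM (ect2). Its copy AT2G07671, which contains the sequence printed above, stood at 135, 220, 236 and 159 FPKM in the same order. Both rows thus put Col-0 replicate 1 lowest. COB and its copy AT2G07727 were also alike, with 2.61, 10.3, 6.61 and 6.78 FPKM for COB and 5.27, 9.26, 8.49 and 7.91 FPKM for the nuclear locus. The exceptions were the copies of CCB382, with a mean 6.44 times that of the member, and of CCB203, at 0.360 times. Across the 20 pairs Pearson's r of the log2 means was 0.907, given as a description, since the paired rows share libraries and identical or near-identical sequence. Reads from identical stretches cannot be told apart.

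**Figure D2:**
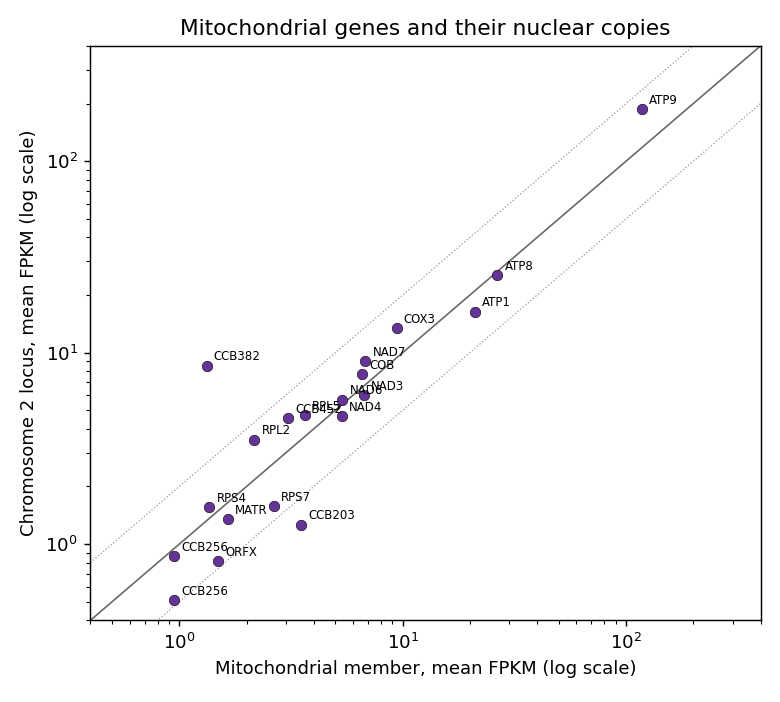
Each point is 1 of 20 pairs of a mitochondrial gene and a chromosome 2 locus that covers at least 50% of it, with the mean FPKM over 4 libraries on log axes. The solid line marks equal levels and the dotted lines a 2-fold difference, outside which lie only CCB382 and CCB203.

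Complex I, the NADH dehydrogenase, had the most genes, with means from 0 to 30.5 FPKM. Its pieces of nad5 were unequal. NAD5C stood at 38.0 and 33.9 FPKM (Col-0) and 33.1 and 16.8 FPKM (ect2). NAD5A stood at 5.61, 7.42, 4.64 and 4.57 FPKM, and NAD5B was listed at 0 in every library. The shortest coding segment of nad5 in RefSeq has 22 nt, and which segment the NAD5B row covers is unknown. Its 0 may be a failed estimate and is not read as absent RNA. For NAD5C and NAD5A both ect2 libraries lay below both Col-0 libraries, with log2 differences of -0.58 ± 0.35 and -0.41 ± 0.24 (limma, adjusted p = 0.842 for each). The nad1 pieces were also unequal, since NAD1C had 8.81 and 33.7 FPKM (Col-0) and 19.8 and 19.7 FPKM (ect2), while NAD1A had 1.53, 4.43, 2.71 and 3.85 FPKM. NAD1B was more even at 9.92, 10.8, 7.83 and 9.44 FPKM. With NAD5B left aside, the pieces of nad5 and those of nad1 were therefore not listed at equal FPKM in any library. NAD2A and NAD2B differed less from each other, with 2.42 and 2.94 FPKM in Col-0 replicate 1 and 6.66 and 7.26 FPKM in Col-0 replicate 2, then 3.93 and 4.72 FPKM in ect2 replicate 1 and 2.56 and 4.97 FPKM in ect2 replicate 2.

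Among the complex I genes with a single row, NAD4L, a small membrane subunit, was highest in ect2 replicate 2, at 42.3 FPKM against 14.4, 23.1 and 13.5 FPKM in the other libraries. NAD9, a subunit of the matrix arm, varied least, from 10.5 and 12.3 FPKM in Col-0 to 12.4 and 13.9 FPKM in ect2. Both ect2 libraries were above both Col-0 libraries for NAD9, by 0.19 ± 0.23 on the log2 scale (limma, adjusted p = 0.881), so the difference was within its error. NAD6 was less even, at 1.94 and 9.92 FPKM (Col-0) and 4.67 and 4.98 FPKM (ect2), where the Col-0 libraries were the lowest and the highest. NAD3, NAD4 and NAD7 had the same lowest and highest libraries as NAD6 and stood between 3.23 and 10.6 FPKM. Over the 13 tested complex I genes the median difference was 0.04, with 8 positive and 5 negative.

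COB, cytochrome b of complex III, was lowest in Col-0 replicate 1 (2.61 FPKM) and highest in Col-0 replicate 2 (10.3 FPKM), and its difference between genotypes was 0.27 ± 0.57 (limma, adjusted p = 0.936). COX1, the catalytic subunit of cytochrome c oxidase, stood at 7.33 and 15.6 FPKM (Col-0) and 8.13 and 7.65 FPKM (ect2). COX2 stood at 12.1, 22.6, 12.7 and 17.8 FPKM and COX3 at 7.29, 13.2, 8.37 and 8.71 FPKM. All 3 complex IV genes were lowest in Col-0 replicate 1 and highest in Col-0 replicate 2, with both ect2 libraries between them. Their differences ran from -0.40 to -0.13, each with a limma standard error of 0.31 or more.

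In complex V, the ATP synthase, ATP9 was the most abundant respiratory transcript in every library. ATP8 had 21.9 and 31.8 FPKM (Col-0) and 28.4 and 24.0 FPKM (ect2), and ATP1, the alpha subunit of the catalytic head, 17.6, 26.0, 21.3 and 19.3 FPKM. ORF25, known as the gene for the peripheral stalk subunit (atp4), had 10.0, 31.7, 15.5 and 27.3 FPKM. ATP6-1 and ATP6-2, which encode the proton channel subunit, had 10.2, 16.7, 12.5 and 9.34 FPKM and 6.85, 9.16, 8.22 and 6.74 FPKM. In all 6 complex V genes Col-0 replicate 2 was the highest library. Genotype differences lay between -0.25 and 0.18, and none of the 6 genes had groups that did not overlap.

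Genes for cytochrome c maturation, which mount heme on cytochrome c and on cytochrome c1 of complex III, were low. CCB206, which encodes the membrane subunit of an ABC transporter (ccmB), stood at 3.04 and 6.31 FPKM (Col-0) and 3.64 and 5.79 FPKM (ect2). No match to ccmB was found in the nuclear sequence of TAIR10.1. CCB203 had 2.19, 5.29, 2.56 and 3.96 FPKM, CCB452 2.59, 2.93, 3.02 and 3.75 FPKM, and CCB382 1.14, 1.66, 1.48 and 1.02 FPKM. The first 2 of these 4 were higher in replicate 2 of each genotype by more than 1.5 times. CCB256 (ccmC) reached 1 FPKM in Col-0 replicate 2 alone, at 1.88 FPKM, and was not tested. Over the 4 tested genes the median difference was -0.02.

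Ribosomal protein genes spanned a similar range, apart from RPL16, a protein of the large subunit, at 22.2 and 28.3 FPKM (Col-0) and 20.3 and 17.7 FPKM (ect2). Both ect2 libraries were below both Col-0 libraries for RPL16, with a difference of -0.38 ± 0.24 on the log2 scale (limma, adjusted p = 0.842). RPSL2 was also lower in both ect2 libraries, at 4.07 and 4.30 FPKM against 5.43 and 4.97 FPKM. RPL5, at 0.997, 5.50, 3.29 and 4.77 FPKM, and RPS7, at 1.75, 4.22, 3.37 and 1.29 FPKM, varied several-fold within a genotype. RPL2 stood near 2 FPKM in every library (1.93 to 2.60), and RPS4 between 0.540 and 2.28 FPKM. The median difference of the 6 genes was -0.20, with 5 of 6 negative, but it turned to 0.033 when Col-0 replicate 2 was left out and to 0.045 when ect2 replicate 2 was. MATR, the intron-encoded maturase, and ORFX, which encodes a membrane protein of the Tat translocase (mttB), had means of 1.65 and 1.49 FPKM. MATR was higher in both ect2 libraries, at 2.23 and 1.74 FPKM against 0.972 and 1.66 FPKM.

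**Figure D3:**
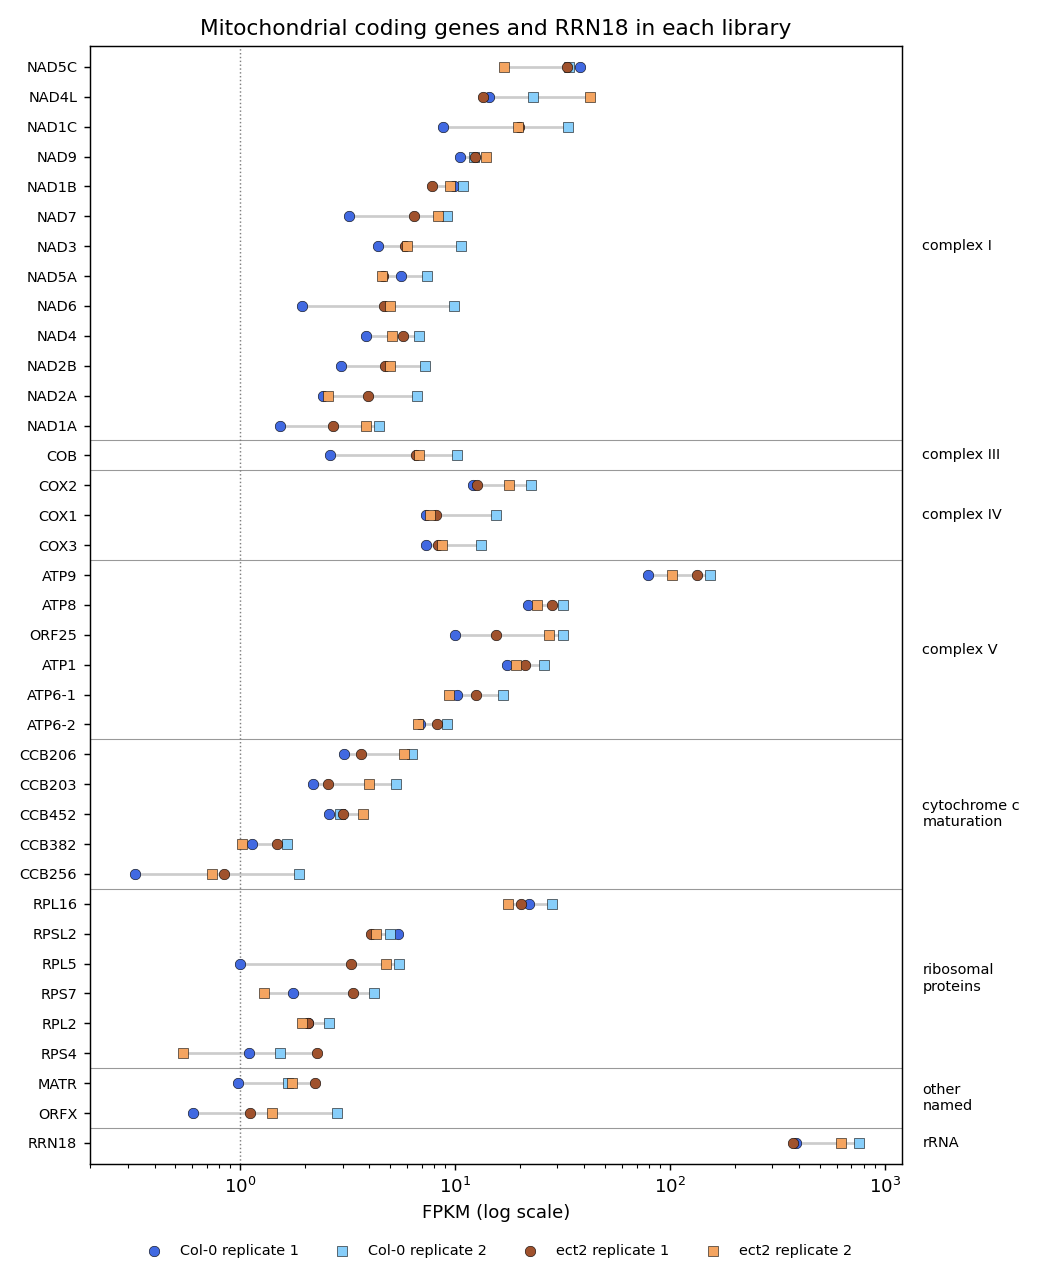
Points give the FPKM of the named coding genes and RRN18 in each library on a log axis, grouped by class and ordered by mean, with grey lines from the lowest to the highest library and a dotted line at 1 FPKM; NAD5B, at 0 throughout, is left out. Col-0 replicate 2 (light blue squares) is the highest point for most coding genes and Col-0 replicate 1 (dark blue circles) the lowest, with the ect2 libraries between them.

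RRN18, the RNA of the small ribosomal subunit, stood at 387 and 759 FPKM (Col-0) and 374 and 626 FPKM (ect2), so replicate 2 was higher than replicate 1 in both genotypes. Only 3.77% of its length was matched in the nuclear sequence of TAIR10.1. The rows for the other mitochondrial ribosomal RNAs were not analysed here.

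The open reading frames are the loci whose symbol placed them in no other class, and whether any has an annotated product was not examined. Among them, ORF107A exceeded every coding gene with a name in every library, with 1421 and 2013 FPKM (Col-0) and 1370 and 1811 FPKM (ect2). The groups overlapped, and the difference was -0.10 ± 0.29 (limma, adjusted p = 0.954). The tables do not place ORF107A on the genome. In the RefSeq mitochondrial sequence, 10 frames of exactly 107 codons were found from a start to a stop codon, and 1 of them overlaps rrn26, the large ribosomal RNA gene, by 185 nt on the opposite strand. Whether that frame is ORF107A is not given in the sources used here, nor whether the libraries kept strand, so its reads and those of a gene on the other strand could not be told apart.

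ORF110A was next, at 66.8, 107, 122 and 102 FPKM, followed by ORF106F at 11.0, 21.7, 16.4 and 8.00 FPKM and ORF149 at 14.3, 12.2, 11.0 and 15.5 FPKM. ORF111D and ORF240A, next in mean level, averaged 9.34 and 9.28 FPKM. Most frames were far lower: the median of the 85 means was 0.742 FPKM, 11 were at 0 in every library and 41 were tested. Counts over these 41 are not counts over all 85, since a frame high in 1 genotype only can pass the minimum through that genotype.

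No member passed the test between genotypes. At an adjusted p below 0.05, limma called 0 of 79 members, against 5 of 19308 genes, or 0.0259%. At an unadjusted p below 0.05 it gave 2 members, against 4.86% of all genes tested. These were ORF139B, at 2.56 and 3.13 FPKM (Col-0) and 0.450 and 0.671 FPKM (ect2), and ORF131, at 2.64, 3.78, 1.68 and 1.53 FPKM. Their log2 differences were -1.30 ± 0.25 and -0.68 ± 0.25 (limma, adjusted p = 0.840 and 0.842). Both ect2 values of ORF139B lay below 1 FPKM, a level that few fragments can give, and fragment numbers are not given. With libraries scaled to equal summed FPKM of nuclear genes, limma called ORF139B at an adjusted p of 0.0401, as 1 of 174 genes called in all. Under that scaling limma's estimate of the prior degrees of freedom was infinite for the median gene, so that most genes took the variance of the trend, whereas that median was 3.60 with the FPKM as deposited. The adjusted p is uncertain for that reason. Under every other setting tried where it could be tested it was not called.

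Other frames at the ends of the ranking were less even. ORF161 had 7.62 and 7.83 FPKM (Col-0) and 5.61 and 1.46 FPKM (ect2), a difference of -1.11 ± 0.49 that was -0.40 without ect2 replicate 2. On the higher side, ORF111B had 0.655 and 1.93 FPKM (Col-0) and 2.07 and 4.16 FPKM (ect2) (0.85 ± 0.41). ORF106B had 0.732, 1.08, 3.95 and 1.15 FPKM (0.78 ± 0.44) and ORF111D 7.18, 8.55, 12.7 and 8.95 FPKM (0.40 ± 0.26). The limma adjusted p was 0.842 for each of these 4 frames. Single libraries moved the 3 higher frames too. Without ect2 replicate 1 the difference was 0.18 for ORF106B and 0.17 for ORF111D, and without Col-0 replicate 1 it was 0.44 for ORF111B. In all 4 the groups did not overlap, which the choice by smallest p favours.

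Counted over the 79 tested members, both ect2 libraries were below both Col-0 libraries in 12, a share under the 20.2% of all genes tested, and above in 6, against 17.5% of all genes. The median log2 difference was -0.09 with 29 positive and 50 negative, beside -0.01 over all genes tested. By class the median was -0.02 over 23 respiratory genes and -0.14 over 41 open reading frames. The direction depended on single libraries. Leaving out Col-0 replicate 1 gave a median over members of -0.39, and leaving out Col-0 replicate 2 gave 0.10. With ect2 replicate 1 left out it was 0.04, and with ect2 replicate 2 left out -0.11.

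The larger contrast lay between the 2 Col-0 libraries. Of the 35 tested coding genes with a name, 33 were higher in Col-0 replicate 2 than in replicate 1, against 54.4% of all genes tested, and the median difference was 0.77 on the log2 scale, beside 0.05 over all genes. The 2 exceptions were NAD5C and RPSL2. In ect2, 18 of the 35 were higher in replicate 2, against 43.7% of all genes, and the median difference was 0.03. Col-0 replicate 2 was the highest of the 4 libraries for 28 of the 35 and Col-0 replicate 1 the lowest for 23, while over all genes tested these shares were 26.1% and 36.1%. Plastid genes and seed storage genes also differed between the Col-0 libraries, as given above, and their part in the mitochondrial contrast was not tested.

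The same comparison was made for members matched less in the nuclear sequence of TAIR10.1. For CCB206, COX1, COX2, NAD4L, NAD9, ORF25, RPL16 and RRN18, which were matched in the nucleus over under 50% of their length, Col-0 replicate 2 was above replicate 1 in 8 of 8 and ect2 replicate 2 above replicate 1 in 6 of 8. Their median difference between genotypes was -0.04.

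**Figure D4:**
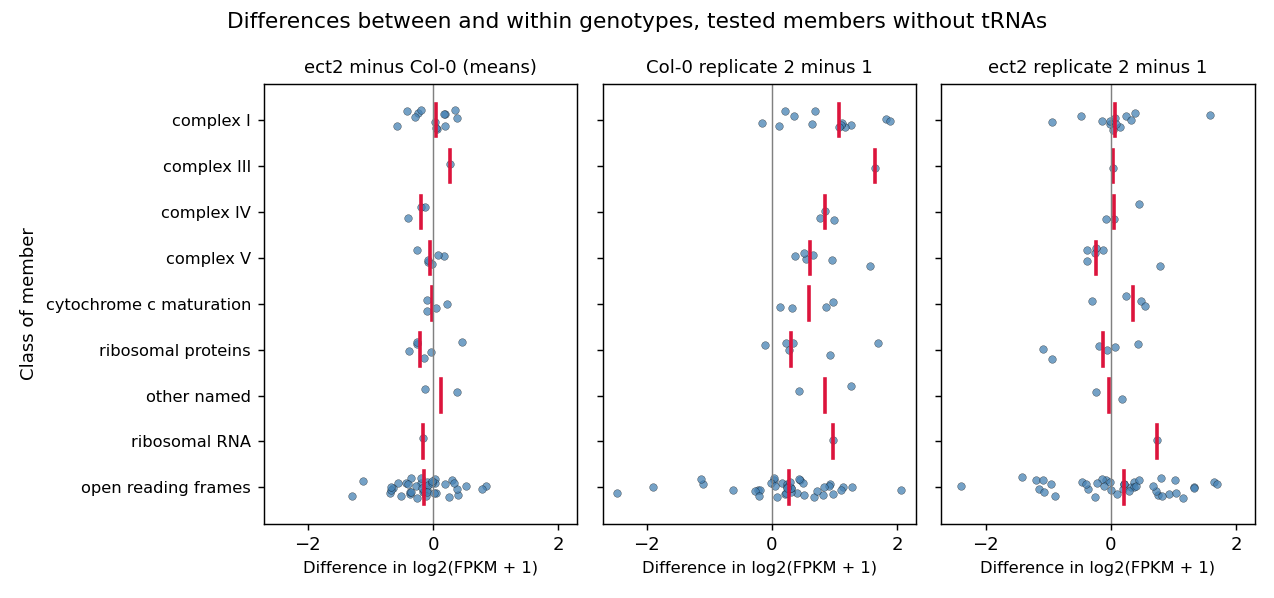
Each point is a tested member, by class, and the horizontal axis is a difference in log2(FPKM + 1) between genotype means (left), the Col-0 libraries (middle) or the ect2 libraries (right); red bars are class medians, and the 2 transfer RNAs are left out. Coding classes lie mostly to the right of 0 between the Col-0 libraries and around 0 between genotypes.

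Nuclear genes for the same complexes were set beside the members. The 41 subunits were listed at higher levels, with median FPKM of 159, 113, 115 and 114 in Col-0 replicates 1 and 2 and ect2 replicates 1 and 2, against 7.33, 12.3, 8.22 and 8.71 FPKM for the 23 tested mitochondrial respiratory genes. Both scales are per length. The genotype difference was negative in 39 of the 41, with a median of -0.32, and by complex the medians were -0.31 for I, -0.28 for III, -0.27 for IV and -0.42 for V. Both ect2 libraries lay below both Col-0 libraries in 26 of 41, beside 20.2% of all genes tested. Of the 41, limma called 0, beside 0.0259% of all genes, and gave 5 at an unadjusted p below 0.05, beside 4.86%. The smallest p was that of AT5G25450, of complex III, which was higher in both ect2 libraries. It stood at 1.47 and 1.79 FPKM (Col-0) and 3.68 and 3.79 FPKM (ect2) (0.85 ± 0.23, limma adjusted p = 0.842). The lowest differences were those of AT1G51650, a small complex V subunit, at 320 and 277 FPKM (Col-0) and 170 and 191 FPKM (ect2) (-0.72 ± 0.22), and AT3G08610, of complex I, at 523, 566, 319 and 341 FPKM (-0.72 ± 0.21). Both had a limma adjusted p of 0.842. The median stayed negative whichever library was left out, from -0.48 to -0.16. Without Col-0 replicate 1 the medians by complex were -0.18 for I, -0.085 for III, -0.32 for IV and -0.18 for V. Col-0 replicate 1, the library with the high seed storage genes, was the highest of the 4 for 30 of these 41 genes, and their part was not tested. Whether mitochondrial and nuclear subunits differ in response was not tested.

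**Figure D5:**
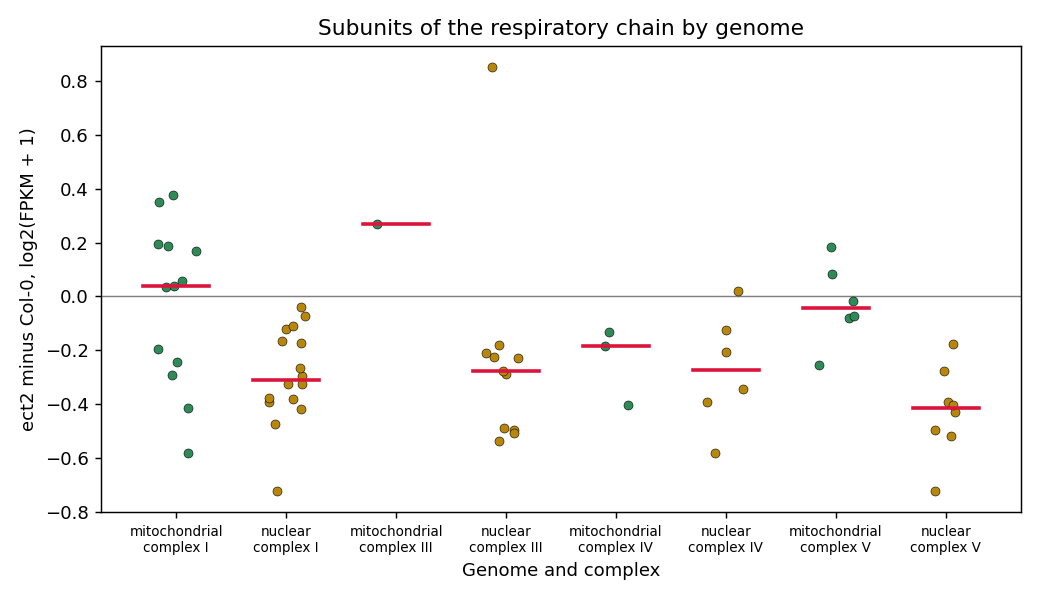
Points give the ect2 minus Col-0 difference in log2(FPKM + 1) for tested mitochondrial (green) and nuclear (ochre) subunits of each respiratory complex, with red bars at the medians. Nuclear subunits lie below 0 in 39 of 41 cases, while the mitochondrial ones lie on both sides.

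Other nuclear gene lists for the organelle had medians of either sign. In alternative respiration, whose oxidases and dehydrogenases bypass the proton-pumping complexes, 6 of 12 genes were tested and the median was 0.12, with 3 positive and 3 negative. AOX1A, the stress-responsive alternative oxidase, had 28.3 and 19.5 FPKM (Col-0) and 35.5 and 29.2 FPKM (ect2), and NDA2, an alternative NADH dehydrogenase, had 4.77, 4.16, 6.72 and 5.37 FPKM. Both were above both Col-0 libraries in both ect2 libraries, by 0.44 ± 0.28 and 0.36 ± 0.24 (limma, adjusted p = 0.842 for each). NDC1, another such dehydrogenase, went the other way, with 14.5, 13.1, 11.5 and 11.0 FPKM (-0.27 ± 0.22, limma adjusted p = 0.844). For cytochrome c and its nuclear maturation factors the median over 5 genes was 0.11, although the cytochrome c genes themselves were lower in both ect2 libraries: CYTC-1 had 256, 250, 166 and 171 FPKM and CYTC-2 44.3, 32.0, 19.8 and 29.4 FPKM. Factors for splicing, transcription and stability of mitochondrial RNA had a median of -0.06 over 17 tested genes, with 8 positive and 9 negative. In none of these 3 lists did limma call a gene, beside 0.0259% of all genes tested. An unadjusted limma p below 0.05 was found for 1 gene, CYTC-1, beside 4.86% of all genes tested.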

How the data were processed

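The authors deposited 1 table per library, and the unit is taken here to be FPKM, inferred from the header and from sums and low values that scale with length. Trimming used cutadapt and alignment used TopHat on TAIR10, per the submitters' processing notes, and the quantifier is not given in the sources used here. Members and gene lists were chosen with earlier results of these data known. A gene needed 1 FPKM in at least 2 libraries to enter the test, which used limma 3.58.1 (R 4.3.3) on log2(FPKM + 1) (trend, robust, two-sided, Benjamini-Hochberg over all 19308 genes). A fold on this scale understates the change of low genes. On data made with known changes over 19308 genes, the test recovered 94.8% of 16-fold and 47% of 4-fold changes, with 5.47% of its calls false. Those data held 200 changed genes and independent noise of the same kind in every library, whereas the real test called 5 genes. In the real data ECT2, at -3.40, was not called (limma adjusted p = 0.153). Recovery in the real test may therefore be lower. The known changes were placed only in genes with a mean log2(FPKM + 1) above 3. Recovery in lower genes, among them many of the tested members, was therefore not measured. Named members are the coding and ribosomal RNA genes, the 6 most abundant frames and the 3 frames of smallest p in each direction. Members at 0 in some libraries and high in others are named too. Nuclear genes named from the gene lists for the organelle are among the 3 of smallest p per list, and not all of these are named. RefSeq TAIR10.1 carries 0 of the 144 identifiers, so genes were matched by symbol, with ORF25 taken as atp4 (36 members), and copies were found with blastn 2.17.0 (at least 95% identity). Alternatives were scaling, pseudocount, minimum, trend, replicate block and leaving out each library.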

Additional observations from a re-analysis of the deposited data

How the results depend on the processing

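The count of members called was 0 under all settings except equal summed nuclear FPKM, where it was 1 (ORF139B, -1.29 on the log2 scale, with ECT2 called at -3.37). The labels do not state whether libraries of the same replicate number were paired. Deviations of same-numbered libraries from their genotype means correlated at 0.0138 over all tested genes and at -0.327 over the 79 tested members. These correlations rest on 1 deviation per genotype, so they cannot settle whether the libraries were paired. With the replicate block the count stayed at 0, with 3 members at an unadjusted limma p below 0.05. Leaving out a library moved these median differences: respiratory genes -0.50 to 0.29, cytochrome c maturation -0.31 to 0.34, ribosomal proteins -0.35 to 0.045, open reading frames -0.38 to 0.073, nuclear complex I -0.34 to -0.18, nuclear complex III -0.48 to -0.085, complex IV -0.32 to -0.21, complex V -0.61 to -0.18, alternative respiration -0.10 to 0.34, nuclear cytochrome c -0.15 to 0.37 and RNA factors -0.12 to 0.24. The log2 ratio of the mitochondrial share ran from -0.76 to 0.47. ECT2 was called without Col-0 replicate 1 or 2, with -2.98 to -3.81 over left-out libraries. Open reading frames had a median of -0.21 at a pseudocount of 0.1 and -0.059 at 5. Nuclear complex IV had -0.31 with equal library medians and -0.24 with equal summed nuclear FPKM, and alternative respiration -0.033 without a minimum. Restriction to 8 members with few nuclear matches, added after seeing the data, gave a median of -0.04. The cause of these shifts was not tested. Depth in reads is unknown.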
